A study of Rattus norvegicus with 10 samples.

Results

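The genes described here are NRF2 targets, 9 of the 23487 genes in the count table: Hmox1, Nqo1, Gclc, Gclm, Srxn1, Txnrd1, Slc7a11, Gsr and Osgin1. They were chosen by name as known targets of NRF2, with Hmox1 selected on its own values in these libraries, since it was higher with a miR-145-5p mimic in OLs and lower with a miR-145-5p inhibitor in OPCs. For that reason the levels and fold changes of every member in those comparisons are a description without a test, as are those of Hmox1 in all comparisons. By gene symbol 8 were found, and Srxn1, which carried no symbol, was found by its Entrez gene ID. All 9 passed the filter on low counts in every comparison.

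NRF2 (gene Nfe2l2) is a transcription factor that is held at a low level in resting cells by KEAP1, which hands it to a CUL3 and RBX1 ubiquitin ligase for degradation. When electrophiles or oxidants modify KEAP1, NRF2 builds up, pairs with a small MAF protein and switches on genes for heme breakdown, glutathione synthesis, thioredoxin reduction and detoxification. OLs carry much iron and make large amounts of membrane lipid, so these genes are of interest in cells that are forming myelin.

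RNAseq was done on primary cells from the cortices of newborn (P1-P3) Sprague-Dawley rat pups, in 10 libraries that fall into 5 groups of 2. OLs were taken 5 days after transfection with the miR-145-5p mimic (OL miR-145), with miR-145-5p and miR-219 mimics together (OL miR-145+miR-219) or with a scrambled mimic (OL miR-ctl). OPCs were taken 24 h after transfection with an inhibitor of miR-145-5p (OPC anti-miR-145) or a scrambled inhibitor (OPC anti-miR-ctl). The study's methods give 30 nM for the miR-145-5p mimic, the miR-145-5p inhibitor and their scrambled controls, and name no dose for the miR-219 mimic. The labels and the study's results describe mimics, while the study's methods on RNAseq describe a lentivirus, and the labels were followed. OPCs were kept in medium with FGF2 and PDGFAA, and OLs in medium with T3, CNTF and N-acetyl cysteine, a thiol that feeds glutathione synthesis, while selenite, the source of selenium for thioredoxin reductases and glutathione peroxidases, was in both. A treatment tag of the OL miR-145 libraries also names miR-219, whereas the titles and descriptions give only miR-145, which was taken as the treatment. Library totals ran from 33505706 to 42684206 counts. The labels do not say which cultures the replicates came from, while the study's methods state in general that a replicate of a primary culture experiment is a biological one. The p-values measure the spread between these libraries. Levels are CPM (counts scaled to library size) after TMM normalization over all 10 libraries, and values of a group are given as replicate 1 and replicate 2.

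The labelled cell types were checked against markers. Summed levels of 10 OL markers ran from 15559 to 34110 CPM in OL libraries and from 1092 to 1324 CPM in OPC libraries, with Mbp the most abundant in OLs and Cnp in OPCs. Summed levels of 7 OPC markers ran from 5898 to 7928 CPM in OPC libraries and from 2401 to 3107 CPM in OL libraries, with Ptprz1 the most abundant by the mean of all 10 libraries, though Olig1 was above it in OPC anti-miR-145. OL libraries also carried much RNA of astrocyte markers, since Gfap, an intermediate filament of astrocytes, lay between 4179 and 9708 CPM in OL libraries and between 7.81 and 51.1 CPM in OPC libraries. All 12 microglia markers were detected in every library, with sums from 417.7 to 1192 CPM and Csf1r the most abundant by the mean of all 10 libraries, though C1qa was above it in most OL libraries. Of 6 matched fibroblast and mural cell markers, 4 matched endothelial markers and 4 matched neuronal markers, the most abundant by the mean of all 10 libraries were Tagln, Kdr and Tubb3, an order that did not hold in every OPC library. No matched marker was at 0 in all libraries, and those at 0 in single libraries were Dcn, Col1a2 and Acta2 of the fibroblast and mural cell list. In bulk RNA, fewer cells of a type and less RNA per cell cannot be told apart.

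Hmox1 encodes heme oxygenase 1, the inducible enzyme that splits heme into biliverdin, carbon monoxide and iron. In OLs it stood at 127 and 136 CPM with miR-ctl, at 340 and 291 CPM with miR-145, and at 232 and 145.5 CPM with miR-145 and miR-219 together. In OPCs it stood at 434 and 386 CPM with anti-miR-ctl and at 148 and 98.9 CPM with anti-miR-145. Both miR-145 libraries were thus above both control OL libraries, and both inhibitor libraries were far below both control OPC libraries. By group mean the order from high to low was OPC anti-miR-ctl (410 ± 33.9 CPM, SD, n = 2), OL miR-145 (316 ± 34.5), OL miR-145+miR-219 (189 ± 60.9), OL miR-ctl (132 ± 6.23) and OPC anti-miR-145 (124 ± 34.8). The means of OL miR-145+miR-219, OL miR-ctl and OPC anti-miR-145 followed each other by less than the larger SD, and replicate 2 with both mimics was close to the control OLs. The libraries of OPC anti-miR-145 and OL miR-ctl overlapped.

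As a description, the log2 fold change of Hmox1 was 1.27 ± 0.13 (standard error) for OL miR-145 against OL miR-ctl, a level 2.41 times the control. For OPC anti-miR-145 against OPC anti-miR-ctl it was -1.71 ± 0.19, so that the control level was 3.28 times that with the inhibitor. With any 1 library left out the mimic value stayed between 1.16 and 1.37 and the inhibitor value between -2.05 and -1.44. With both mimics it was 0.52 ± 0.23 against OL miR-ctl, and it dropped to 0.15 when replicate 1 of the mimic group was left out. Against OL miR-145 alone, Hmox1 in the group with both mimics was at -0.75 ± 0.24. These comparisons share libraries, so the values are placed side by side only. Hmox1 in control OLs was at -1.64 ± 0.093 relative to control OPCs.

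**Figure D1:**
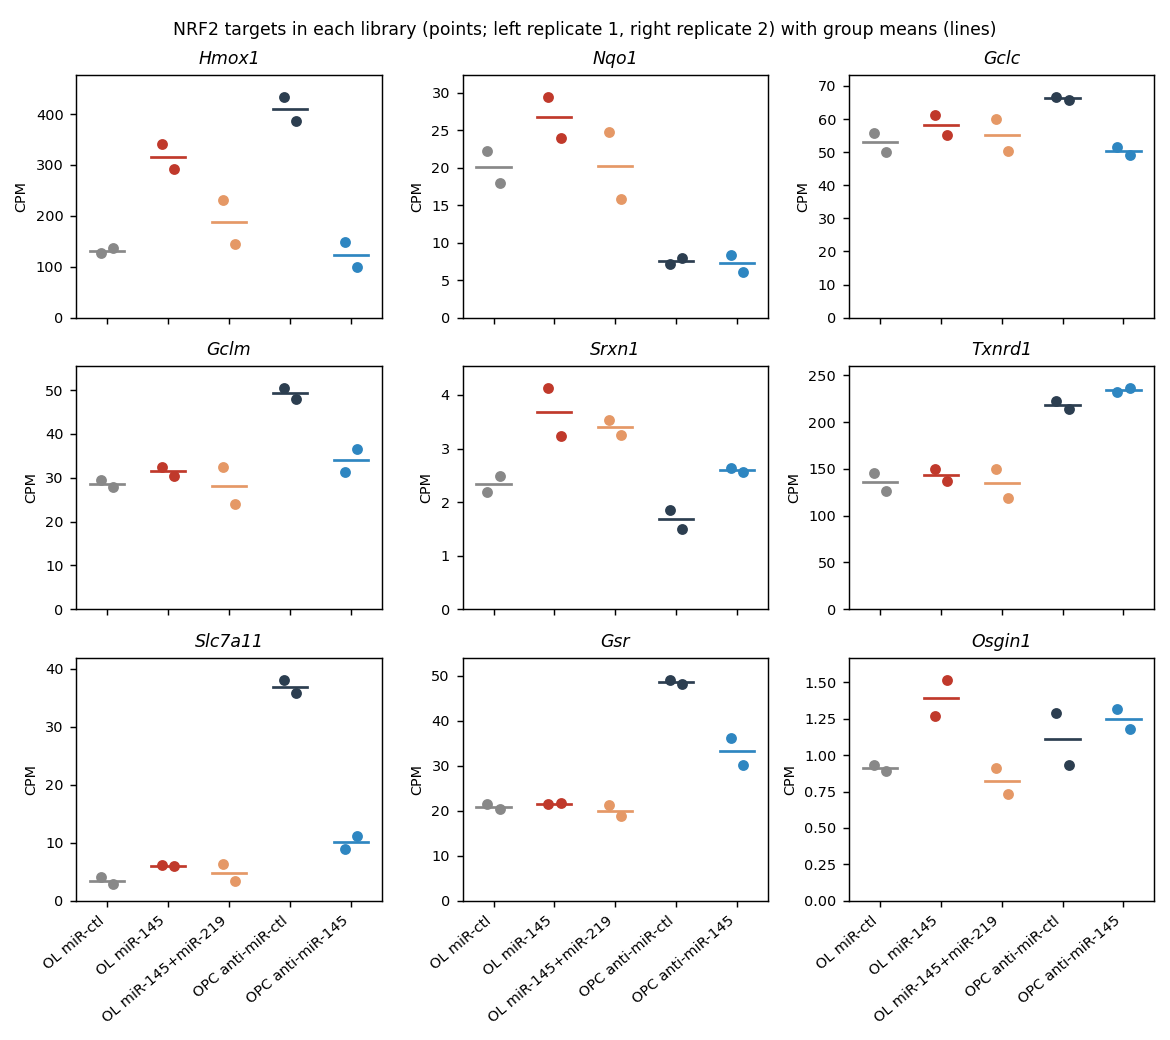
CPM of each NRF2 target (y axis, linear and starting at 0) in the 10 libraries by group (x axis), with points for replicates 1 (left) and 2 (right) and lines for group means. Hmox1 and Slc7a11 are highest in OPC anti-miR-ctl, Nqo1 is higher in all OL libraries than in all OPC libraries, and Gclc spans only 49.2 to 66.8 CPM.

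Cystine import and glutathione synthesis are served by 4 members. Slc7a11 is the light chain of the cystine/glutamate exchanger xCT, which supplies cysteine. It was at 38.1 and 35.8 CPM in OPC anti-miR-ctl and at 8.99 and 11.2 CPM in OPC anti-miR-145. In OLs it was low throughout, at 4.10 and 2.92 CPM with miR-ctl, 6.23 and 5.93 CPM with miR-145, and 6.30 and 3.42 CPM with both mimics. The OPC controls therefore stood above every other library, and the miR-145 OLs lay above the control OLs. The log2 fold change of Slc7a11 was -1.86 ± 0.12 with the inhibitor and 0.80 ± 0.26 with the mimic.

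Gclc and Gclm are the catalytic and the modifier subunit of glutamate-cysteine ligase, which catalyses the rate-limiting step of glutathione synthesis. Gclc was at 66.8 and 65.7 CPM in OPC anti-miR-ctl, 51.6 and 49.2 CPM in OPC anti-miR-145, 55.7 and 50.2 CPM in OL miR-ctl, 61.2 and 55.3 CPM in OL miR-145, and 60.1 and 50.4 CPM with both mimics. Gclm was at 50.4 and 48.1 CPM in OPC anti-miR-ctl, 31.4 and 36.5 CPM in OPC anti-miR-145, 29.5 and 27.9 CPM in OL miR-ctl, 32.5 and 30.5 CPM in OL miR-145, and 32.4 and 23.9 CPM with both mimics. For both subunits the OPC controls were the highest libraries, and the inhibitor libraries did not overlap with them. Gclc was at -0.38 ± 0.083 and Gclm at -0.52 ± 0.098 with the inhibitor, against 0.14 ± 0.12 for each with the mimic. Gsr, the glutathione reductase that returns oxidised glutathione to its thiol form, was at 49.1 and 48.1 CPM in OPC anti-miR-ctl and 36.1 and 30.3 CPM in OPC anti-miR-145, a log2 fold change of -0.53 ± 0.11. In the 6 OL libraries Gsr stayed between 18.9 and 21.6 CPM, and its log2 fold change with the mimic was 0.048 ± 0.12.

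The members of the thioredoxin arm and the quinone reductase were not lower with the inhibitor in OPCs beyond the spread of the replicates, and differences between members were not tested. Txnrd1, cytosolic thioredoxin reductase, was at 223 and 213 CPM in OPC anti-miR-ctl and at 232 and 236 CPM in OPC anti-miR-145, which lay just above the controls at 0.12 ± 0.077. In OLs it ran from 119 to 150 CPM, with overlapping groups and 0.077 ± 0.12 for the mimic. Srxn1, sulfiredoxin, which repairs overoxidised peroxiredoxins, was scarce, with 55 to 143 counts a library. Srxn1 was at 1.85 and 1.51 CPM in OPC anti-miR-ctl, 2.63 and 2.57 CPM in OPC anti-miR-145, 2.19 and 2.49 CPM in OL miR-ctl, 4.12 and 3.23 CPM in OL miR-145, and 3.53 and 3.26 CPM with both mimics. It was thus higher both with the mimic (0.66 ± 0.27) and with the inhibitor (0.64 ± 0.21), unlike Hmox1. Nqo1, a quinone reductase much used as a readout of NRF2, was at 7.11 and 7.92 CPM in OPC anti-miR-ctl and 8.42 and 6.15 CPM in OPC anti-miR-145, so these groups overlapped at -0.029 ± 0.18. In OLs Nqo1 was at 22.3 and 18.0 CPM with miR-ctl, 29.5 and 23.9 CPM with miR-145, and 24.7 and 15.8 CPM with both mimics, with 0.41 ± 0.17 for the mimic. Osgin1, oxidative stress induced growth inhibitor 1, had 26 to 60 counts a library and 0.730 to 1.52 CPM, so that small differences were not detectable at this depth. Its log2 fold change was 0.62 ± 0.33 with the mimic and 0.18 ± 0.28 with the inhibitor.

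The mimic comparison and the inhibitor comparison were used in choosing Hmox1, so the following counts leave it out, are descriptive and have nothing read from them. Between OL miR-145 and OL miR-ctl, 6 of the 8 other members had groups that did not overlap, all 6 higher with the mimic, where 47.2% of 15461 genes did not overlap. The median log2 fold change of these 8 members was 0.28, beside -0.011 for all genes, and 0.18 without replicate 1 of OL miR-145 and 0.17 without replicate 2 of OL miR-ctl, where Gsr and Txnrd1 were below 0 (-0.0030 and -0.029). Between OPC anti-miR-145 and OPC anti-miR-ctl, 6 of the 8 did not overlap, with Gclc, Gclm, Slc7a11 and Gsr lower and Srxn1 and Txnrd1 higher, where 68.0% of 15496 genes did not overlap. The median over the 8 members was -0.20, beside 0.00451 for all genes, and -0.36 without replicate 1 and -0.11 without replicate 2 of OPC anti-miR-145.

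**Figure D2:**
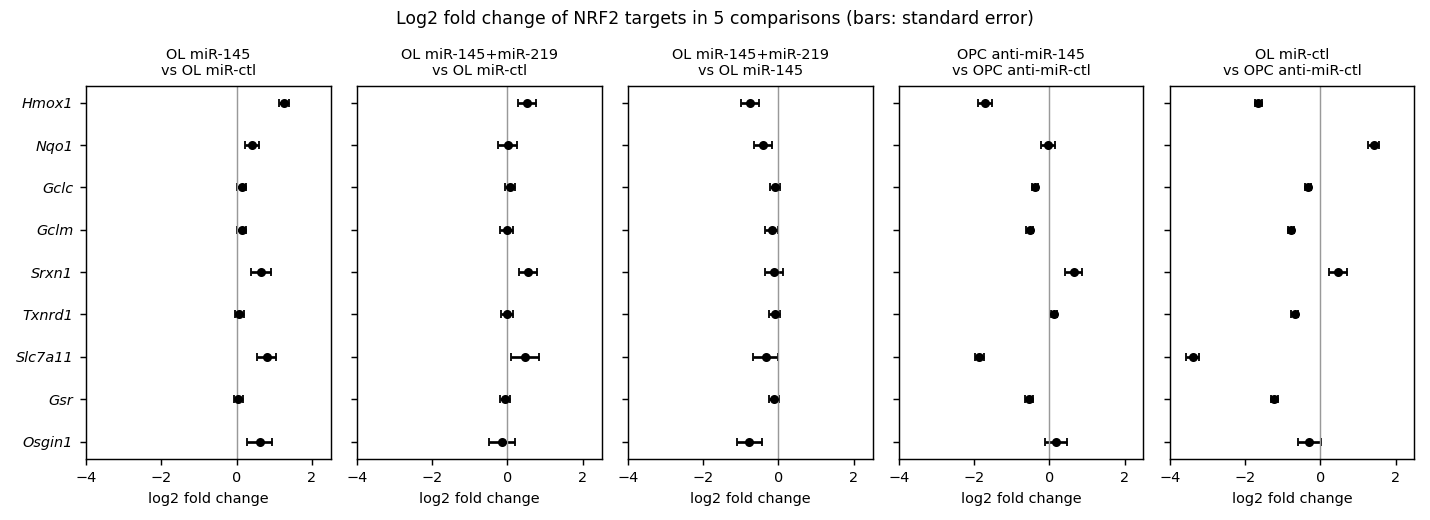
Log2 fold change of the 9 NRF2 targets (x axis) in 5 comparisons, with bars for the standard error. Slc7a11 has the largest drop from control OPCs to control OLs, at -3.39, and Hmox1 the highest value with the miR-145 mimic, at 1.27.

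For the 8 members other than Hmox1, the comparison of both mimics with OL miR-ctl was not part of the choice, although the control libraries are the same. edgeR's quasi-likelihood test called 0 of the 8, where it called 0.0% of 15436 genes. At an unadjusted p under 0.05 there were 0 members, against 6.19% of genes, and DESeq2 called 0, against 0.687% of genes. Srxn1 was highest at 0.54 ± 0.23 (edgeR adjusted p = 0.814), with both mimic libraries above both controls. It was 1 of the 8 whose groups did not overlap, where 36.7% of all genes did not overlap. Slc7a11 was at 0.47 ± 0.37 (edgeR adjusted p = 0.878), and leaving out replicate 1 of the mimic group turned it to -0.027. The other 6 lay between -0.14 and 0.065. Replicate 2 of the group with both mimics was below replicate 1 for each of these 8 members.

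Adding the miR-219 mimic to the miR-145 mimic was examined by comparing OL miR-145+miR-219 with OL miR-145. The 8 members had log2 fold changes from -0.77 to -0.088 with a median of -0.15, beside -0.0028 for all genes. Their median was -0.33 without replicate 1 of the group with both mimics and -0.24 without replicate 2 of OL miR-145. Without replicate 2 of the group with both mimics that median was -0.0048, and Gclc, Gclm, Txnrd1 and Slc7a11 were above 0, at 0.031, 0.026, 0.051 and 0.038, while Srxn1 was above 0, at 0.050, without replicate 1 of OL miR-145. edgeR called 0 of the 8, where it called 0.0% of 15501 genes. At an unadjusted p under 0.05 there were 0, against 1.47% of genes, and DESeq2 called 0, against 0.0581% of genes. Osgin1 was at 0.914 and 0.730 CPM with both mimics and at 1.27 and 1.52 CPM with miR-145 alone, a log2 fold change of -0.77 ± 0.33 (edgeR adjusted p = 1.00). Osgin1 and Gsr were the 2 members whose groups did not overlap, where 24.4% of all genes did not overlap. All 8 astrocyte markers (median -0.31) and all 12 microglia markers (-0.45) were also below 0 here, and all 10 OL markers above 0 (0.30). edgeR called 0 in each list, and 2, 0 and 4 with a block on replicate number, with the count over all genes given under the processing. Without replicate 2 of OL miR-145 the microglia median was 0.32. Without replicate 2 of the group with both mimics the astrocyte and OL medians were 0.059 and -0.076. Their part in the values of the members was not tested.

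Control OLs were next compared with control OPCs for the same 8 members. Stage, medium, kind of oligonucleotide and time after transfection differ together here and cannot be told apart. Markers of other cell types moved as well, with 7 of 8 astrocyte markers called higher in control OLs (Gfap at 9.12 ± 0.15) and, of 12 microglia markers, 1 higher and 5 lower (Csf1r at -2.13 ± 0.23). Of 4 fibroblast and mural cell markers tested, 2 were called higher (Tagln at 5.79 ± 0.34). Of 4 endothelial markers 3 were higher (Kdr at 5.64 ± 0.28) and 1 lower, and of 4 neuronal markers 1 was higher (Tubb3 at 1.80 ± 0.11) and 2 lower. The part of all these markers in the values of the members was not tested. edgeR called 6 of the 8, where it called 57.5% of 15721 genes, so most genes passed this test. Nqo1 was the 1 member called higher in OLs, where 28.8% of genes were, at 20.1 ± 3.04 CPM (SD, n = 2) against 7.52 ± 0.572 CPM in OPCs and a log2 fold change of 1.42 ± 0.16 (edgeR adjusted p = 0.00126). Gclc, Gclm, Txnrd1, Slc7a11 and Gsr were called lower in OLs, where 28.7% of genes were, and each of the 6 called members had its direction in 2 of 2 OL libraries. Slc7a11 fell furthest, at -3.39 ± 0.18 (edgeR adjusted p = 0.000132). Gsr fell to -1.22 ± 0.085 (edgeR adjusted p = 0.000284), Gclm to -0.78 ± 0.084 (edgeR adjusted p = 0.00114) and Txnrd1 to -0.68 ± 0.095 (edgeR adjusted p = 0.00283). Gclc was at -0.33 ± 0.086 (edgeR adjusted p = 0.0236) and was not called without replicate 1 of OPC anti-miR-ctl (-0.34) or without its replicate 2 (-0.35). Srxn1 at 0.47 ± 0.24 (edgeR adjusted p = 0.153) and Osgin1 at -0.29 ± 0.31 (edgeR adjusted p = 0.465) did not pass.

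The proteins that govern NRF2 were taken from a list of 11 regulators, all of them measured. Nfe2l2 itself was at 42.0 and 41.0 CPM in OPC anti-miR-ctl and at 26.5 and 20.8 CPM in OPC anti-miR-145. Nfe2l2 fell by 0.80 ± 0.13 with the inhibitor on the log2 scale (edgeR adjusted p = 0.00505, lower in 2 of 2 libraries), and was the 1 regulator of 11 called there, where edgeR called 28.1% of all genes. In OLs Nfe2l2 was at 52.2 and 62.8 CPM with miR-ctl, 87.5 and 86.6 CPM with miR-145, and 78.2 and 68.8 CPM with both mimics. The mimic libraries were above the controls, but the difference of 0.60 ± 0.13 was not called by edgeR (adjusted p = 0.178), whereas DESeq2 called it. With both mimics it was 0.36 ± 0.13 (edgeR adjusted p = 0.801). Nfe2l2 was therefore high and low in the same libraries as Hmox1 within OLs and within OPCs, while between the stages it went the other way, being higher in control OLs than in control OPCs (0.47 ± 0.11, edgeR adjusted p = 0.0180). That last call was lost without replicate 1 (0.46) or replicate 2 (0.44) of OPC anti-miR-ctl.

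Keap1, the adaptor that binds NRF2, was at 59.997 and 56.1 CPM in OPC anti-miR-ctl and 66.1 and 63.9 CPM in OPC anti-miR-145, a difference of 0.18 ± 0.083 that was not called (edgeR adjusted p = 0.157). In OLs Keap1 was at 58.1 and 69.1 CPM with miR-ctl and 69.1 and 63.1 CPM with miR-145, which overlapped. Bach1, a heme-regulated repressor that competes for the sites of NRF2, was at 32.3 and 30.3 CPM in OPC anti-miR-ctl and 22.6 and 26.5 CPM in OPC anti-miR-145, at -0.34 ± 0.10 with an edgeR adjusted p of 0.0525 that just missed the threshold. In OLs Bach1 was at 36.4 and 38.2 CPM with miR-ctl and 29.6 and 34.8 CPM with miR-145, at -0.21 ± 0.13 (edgeR adjusted p = 0.537). The ligase genes Cul3 and Rbx1, the small MAF genes Mafk, Mafg and Maff, the KEAP1-binding autophagy receptor Sqstm1, the related factor Nfe2l1 and the NRF2 kinase Gsk3b had log2 fold changes between -0.086 and 0.25 with the inhibitor. Between control OLs and control OPCs, 5 regulators of 11 were called higher in OLs and 2 lower, where 28.8% and 28.7% of all genes were. Among them Mafk was at 1.12 ± 0.11 and Maff at -1.03 ± 0.25. The call of Mafk held without either library of OPC anti-miR-ctl. Besides that of Nfe2l2, the calls of Cul3 (-0.39 and -0.34), Maff (-0.99 and -1.11), Sqstm1 (0.83 and 0.80), Nfe2l1 (0.27 and 0.29) and Gsk3b (0.34 and 0.27) were lost without replicate 1 and without replicate 2 of it.

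Other genes of the pathway were taken from 7 further lists, and with the regulators 96 of 102 listed genes were matched. With the inhibitor in OPCs edgeR called 17 listed genes higher and 19 lower of 96 tested, where 12.1% of all genes were called higher and 16.0% lower. With the miR-145 mimic in OLs it called 0 of 95, as it called 0.0% of all genes. A block on replicate number gave 31 calls, with the count over all genes given under the processing. Of these 95, 27 had an unadjusted p under 0.05, all higher, where 13.4% of all genes passed in either direction, and DESeq2 called 14, all higher, where it called 4.2% of all genes. With both mimics it called 0 of 96, where 9 had an unadjusted p under 0.05 (6.19% of all genes) and DESeq2 called 1 (0.687% of all genes). For both mimics against miR-145 alone it called 0 of 95, with 2 at an unadjusted p under 0.05 (1.47% of all genes) and 0 by DESeq2 (0.0581% of all genes). Between control OLs and control OPCs it called 36 higher and 27 lower of 96, where 28.8% and 28.7% of all genes were. The counts of each list between the stages, given below, stand beside these same shares. The OPC inhibitor counts moved with the library left out. Without replicate 1 of OPC anti-miR-ctl 18 listed genes were called and without replicate 2 there were 22. Over all genes, 2348 and 2407 were called without these libraries and 7133 without replicate 2 of OPC anti-miR-145, in place of 4348. In the stage comparison 31 and 30 listed genes, and 4842 and 4780 of all genes in place of 9042, were called without replicate 1 or 2 of OPC anti-miR-ctl.

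In the heme and iron list, Hmox2, the constitutive heme oxygenase, was at 35.0 and 35.9 CPM in OPC anti-miR-ctl and 41.1 and 37.8 CPM in OPC anti-miR-145, and between 53.5 and 63.3 CPM in OLs. The log2 fold change of Hmox2 was -0.030 ± 0.11 with the mimic and 0.17 ± 0.094 with the inhibitor, neither called, and 0.67 ± 0.089 between control OLs and control OPCs (edgeR adjusted p = 0.00238). Hmox1 and Hmox2 therefore moved apart between the stages. With the inhibitor, where 12.1% of all genes were called higher and 16.0% lower, 1 gene of 11 was called higher and 2 lower. These were the heme-binding Hebp1 (0.76 ± 0.19), the lysosomal heme exporter Slc48a1 (-0.58 ± 0.092) and the biliverdin reductase Blvrb (-0.46 ± 0.11). The calls of Hebp1 without replicate 2 (0.72) and of Blvrb without replicate 1 (-0.47) or 2 (-0.50) of OPC anti-miR-ctl were lost. Between the stages 5 were called higher in OLs and 2 lower, with Slc48a1 (0.81 ± 0.15) and Alas1, which starts heme synthesis (0.75 ± 0.08), highest and the transferrin receptor Tfrc (-1.25 ± 0.11) lowest. Slc40a1, also called lower, carries 2 gene IDs under its name, so its value is uncertain.

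In the glutathione list 2 of 16 genes were called higher with the inhibitor and 3 lower, where 12.1% and 16.0% of all genes were. Glrx, glutaredoxin, was at 135 and 119 CPM in OPC anti-miR-ctl and 36.9 and 32.5 CPM in OPC anti-miR-145 (-1.85 ± 0.11, edgeR adjusted p = 8.8e-05), close to Slc7a11 in size. Gsta4 was at -0.70 ± 0.20, a call lost with DESeq2, without replicate 1 of OPC anti-miR-145 (-0.66) and without replicate 1 (-0.59) or 2 (-0.84) of OPC anti-miR-ctl. Glutathione synthetase Gss (0.70 ± 0.11) and the lipid peroxidase Gpx4 (0.59 ± 0.10) rose, so Gss went up where Gclc and Gclm were lower. Between the stages 8 were called higher in OLs, led by Mgst1 (2.89 ± 0.21) and Gstm1 (1.74 ± 0.10), and 5 lower, led by Glrx (-3.03 ± 0.10) and Ggct (-1.71 ± 0.20).

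In the thioredoxin list 4 of 14 genes were called higher with the inhibitor and 1 lower, where 12.1% and 16.0% of all genes were. Prdx6, a peroxiredoxin that uses glutathione, was at 82.5 and 86.9 CPM in OPC anti-miR-ctl and 240 and 200 CPM in OPC anti-miR-145 (1.39 ± 0.12, edgeR adjusted p = 0.000248). In OLs Prdx6 was at 139 and 150 CPM with miR-ctl and at 430 and 263 CPM with miR-145 (1.27 ± 0.24, edgeR adjusted p = 0.164). Prdx6 thus stood above its control in every library given the miR-145 mimic and in every library given the inhibitor, and its OL values are given because of this, after they were seen. Prdx2 rose (0.54 ± 0.10), a call lost without replicate 1 of OPC anti-miR-ctl (0.48), and Prdx5 fell from 147 and 148 CPM to 72.0 and 53.4 CPM (-1.22 ± 0.15). Between the stages 5 were called in each direction, with Txnrd3 (1.58 ± 0.14) and Txnip (1.45 ± 0.32) highest and Prdx5 (-1.06 ± 0.07) and Txn1 (-0.73 ± 0.07) lowest.

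NADPH drives both systems. Genes of NADPH supply were called in both directions with the inhibitor and between the stages. With the inhibitor Rpia (0.60 ± 0.13) and Pgls (0.48 ± 0.12) of the pentose phosphate pathway rose, with calls lost without replicate 1 of OPC anti-miR-ctl (0.49 and 0.48) and, for Pgls, without replicate 2 (0.42). Among those called between the stages were Idh1 (0.60 ± 0.08), Me1 (0.40 ± 0.07) and Rpia (-2.68 ± 0.10).

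Among detoxification and export genes 2 of 16 were called higher with the inhibitor and 3 lower, where 12.1% and 16.0% of all genes were. Akr1b8, an aldo-keto reductase, fell from 56.8 and 50.8 CPM to 9.36 and 5.18 CPM (-2.88 ± 0.25), and the metallothionein Mt2A from 6.41 and 6.44 CPM to 1.19 and 1.27 CPM (-2.36 ± 0.17). The fatty aldehyde dehydrogenase Aldh3a2 rose from 168 and 160 CPM to 308 in each library (0.92 ± 0.08), and Akr1a1 was at 0.39 ± 0.10, a call lost without replicate 1 (0.35) or 2 (0.37) of OPC anti-miR-ctl. Between the stages 3 were called higher in OLs, with Mt1 (4.58 ± 0.18) and Mt2A (4.30 ± 0.15) leading, and 6 lower, with Akr1b8 (-4.62 ± 0.19) and Cbr3 (-4.41 ± 0.17) leading.

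Of 7 superoxide and peroxide enzymes 3 were called higher with the inhibitor and 3 lower, where 12.1% and 16.0% of all genes were. Sod2, mitochondrial superoxide dismutase, fell from 407 and 395 CPM to 93.9 and 78.8 CPM (-2.20 ± 0.11, edgeR adjusted p = 5.89e-05). Sod3 (-1.01 ± 0.29) and the methionine sulfoxide reductases Msra (0.54 ± 0.13) and Msrb1 (0.32 ± 0.10) were also called, but lost their calls without replicate 1 (-1.17, 0.57 and 0.32) or replicate 2 (-0.90, 0.46 and 0.28) of OPC anti-miR-ctl, and Sod3 and Msrb1 also with DESeq2 and without replicate 1 of OPC anti-miR-145 (-1.01 and 0.25). Between the stages 3 were higher in OLs, with catalase Cat (1.71 ± 0.10) and Pon2 (0.98 ± 0.12) leading, and 3 lower, with Sod2 (-1.41 ± 0.12) and Sod1 (-0.40 ± 0.08) leading.

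ATF4, the factor of the integrated stress response, also drives Slc7a11. Atf4 was at 205 and 213 CPM in OPC anti-miR-ctl and 229 and 193 CPM in OPC anti-miR-145, which overlapped. Of 13 genes in its list 2 were called higher with the inhibitor and 5 lower, where 12.1% and 16.0% of all genes were. The higher ones were Shmt2 (0.59 ± 0.11) and Ddit4 (0.50 ± 0.08, not called at 0.44 without replicate 1 of OPC anti-miR-ctl). The lower ones were led by Trib3 (-1.52 ± 0.22) and Cebpb (-1.45 ± 0.14). Between the stages 5 were higher in OLs, led by Atf3 (3.50 ± 0.41) and Ddit3 (1.36 ± 0.41), and 2 lower, Nupr1 (-4.96 ± 0.22) and Cebpb (-0.93 ± 0.15). Of the listed genes named for the stage comparison, the calls of Slc48a1 (0.78 and 0.79), Slc40a1 (-0.95 and -0.81), Txnip (1.55 and 1.33), Me1 (0.40 and 0.36), Sod1 (-0.44 and -0.39) and Ddit3 (1.24 and 1.46) were lost without replicate 1 and without replicate 2 of OPC anti-miR-ctl, and that of Cebpb (-0.80) without replicate 1.

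Markers of other cell types moved with some of these values. The 8 astrocyte markers summed to 6423 and 5404 CPM in OL miR-ctl, 13163 and 8923 CPM in OL miR-145, and 10891 and 6423 CPM with both mimics. Their sum was thus higher with the miR-145 mimic, as was Hmox1, and replicate 2 of the group with both mimics was low in both. All 8 were above 0 in log2 fold change with the mimic, with a median of 0.87, and edgeR called 0 of them. Of the 8, 6 had an unadjusted p under 0.05 (13.4% of all genes) and DESeq2 called 4 (4.2% of all genes). In OPCs the astrocyte sum was 674 and 636 CPM with anti-miR-ctl and 403 and 447 CPM with anti-miR-145, although Gfap rose there by 2.53 ± 0.13 on the log2 scale, from 8.23 and 7.81 CPM to 40.7 and 51.1 CPM. Microglia markers summed to 1139 and 1060 CPM in OPC anti-miR-ctl and to 1192 and 948.5 CPM in OPC anti-miR-145, which overlapped. Of the 12, 7 were called higher and 5 lower. The lower ones were Itgam (-1.58 ± 0.10), Ptprc (-1.52 ± 0.12), Aif1 (-1.40 ± 0.21), Tyrobp (-0.96 ± 0.23) and Csf1r (-0.41 ± 0.11), and the higher ones ran from Cd68 (0.42 ± 0.11) to Cx3cr1 (1.83 ± 0.19), all but Csf1r named after their values were seen. In OLs the microglia sum was 437 and 646 CPM with miR-ctl, 450.2 and 1114 CPM with miR-145, and 418 and 732 CPM with both mimics. For the 12 microglia markers edgeR called 0 with the miR-145 mimic, where 3 had an unadjusted p under 0.05 (13.4% of all genes) and DESeq2 called 1 (4.2% of all genes). All 12 were also above 0 in log2 fold change there, with a median of 0.77. That direction rests on 1 library in part, since without replicate 2 of OL miR-145 the median was 0.12 with 4 of the 12 below 0 (C1qa, C1qb, C1qc and Ptprc), and without replicate 1 of OL miR-ctl it was 0.56 with 2 below 0. With a block on replicate number edgeR called 7 of the 8 astrocyte and 9 of the 12 microglia markers for the miR-145 mimic. The count over all genes with the block is given under the processing. Among lineage markers 6 of 10 OL markers (median -0.21) and 5 of 7 OPC markers (-0.37) were below 0 with the miR-145 mimic. Of each list edgeR called 0, and 7 and 5 with the block. The OL median was 0.11 without replicate 1 of OL miR-145 and 0.39 without replicate 2 of OL miR-ctl. With the inhibitor, where 12.1% of all genes were called higher and 16.0% lower, 3 OPC markers were called higher and 2 lower. Of OL markers 1 was called higher and 2 lower. The part of any of these cell types in the levels of the NRF2 targets was not tested.

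Fibroblast and mural cell markers were scarce, with 6 matched of 8, and summed to 30.9 and 20.8 CPM in OL miR-ctl, 48.7 and 66.4 CPM in OL miR-145, and 59.2 and 46.9 CPM with both mimics. Both mimic groups thus lay above the control OLs, as Hmox1 did. With the miR-145 mimic 5 of these markers passed the filter and edgeR called 0. All 5 had an unadjusted p under 0.05 (13.4% of all genes), all higher, and DESeq2 called 2 (4.2% of all genes). Their median log2 fold change was 2.57. The size rests in part on replicate 2 of OL miR-145, without which 4 markers could be fitted and had a median of 0.96. Acta2, named after its values were seen, is itself the median of 2.57. It held 18 and 7 counts with miR-145 and 2 and 2 with miR-ctl. Without replicate 2 of OL miR-145 Acta2 could not be fitted, so the medians cover different genes. With both mimics 4 passed the filter, all higher with a median of 1.08, and edgeR called 0. All 4 had an unadjusted p under 0.05 (6.19% of all genes) and DESeq2 called 0 (0.687% of all genes). With a block on replicate number edgeR called 5 of these markers for the miR-145 mimic and 1 for both mimics, with the counts over all genes given under the processing. In OPCs their sum was 1.92 and 1.62 CPM with anti-miR-ctl and 3.95 and 1.91 CPM with anti-miR-145. The summed endothelial markers, 4 matched of 6 and mostly Kdr, were lower in OLs with the mimic, at 27.4 and 19.1 CPM with miR-ctl and 14.0 and 9.65 CPM with miR-145. Of these 4, edgeR called 0, and 2 with the block. At an unadjusted p under 0.05 (13.4% of all genes) 1 was higher (Cdh5, named after its values were seen, at 2.27 ± 0.63) and 1 lower (Kdr, at -1.27 ± 0.32). DESeq2 called 1, Kdr (4.2% of all genes). Cdh5 held only 14 and 17 counts with miR-145 and 2 and 4 with miR-ctl. It could not be fitted when either miR-145 library was left out. Neuronal markers, 4 matched of 6, overlapped there, at 123.6 and 128.5 CPM with miR-ctl and 105.6 and 135.9 CPM with miR-145. In OPCs their sum was 74.2 and 71.1 CPM with anti-miR-ctl and 104 and 103 CPM with anti-miR-145, which did not overlap, with Tubb3 (1.18 ± 0.096) and Rbfox3 (0.88 ± 0.13, named after its values were seen) called higher of 4. The other neuronal markers went the other way, with Syt1 at -0.29 ± 0.11 and Stmn2 at -0.34 ± 0.13. Their groups did not overlap, and neither was called. The part of these cells in the levels of the NRF2 targets was not tested either.

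**Figure D3:**
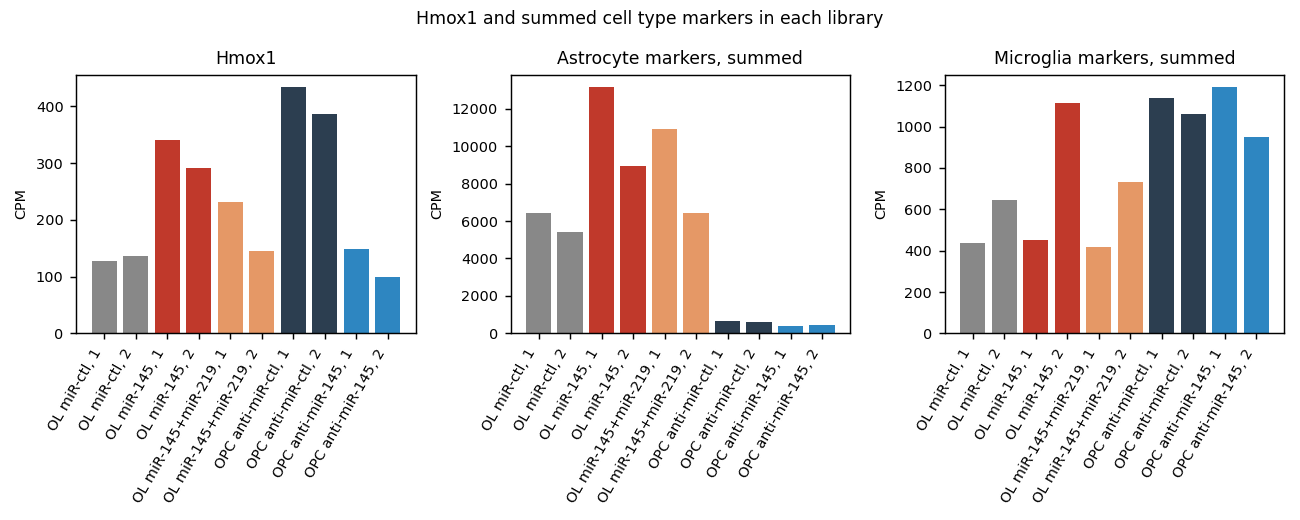
CPM of Hmox1, the sum of 8 astrocyte markers and the sum of 12 microglia markers (y axes, starting at 0) in each of the 10 libraries (x axis, group and replicate). Among OLs the astrocyte sum is highest, at 13163 CPM, in the library where Hmox1 is highest, at 340 CPM, while control OPCs have the most Hmox1 with an astrocyte sum of 674 and 636 CPM.

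Likeness to Hmox1 was measured over the 10 libraries, as Pearson's r of log2(CPM + 1) among 9681 other genes with a symbol and a mean of at least 10 CPM. Libraries of a group share their treatment, so r is a description. Among the highest were the phospholipase Pla2g7 (0.974), Trim5 (0.944), Tbc1d2b (0.939) and the calpain inhibitor Cast (0.938). After each gene was centred within OLs and within OPCs they included Mapkapk3 (0.986), Tap2 (0.980), the uracil glycosylase Ung (0.977) and Fam173a (0.977). Of the members, Gclc was closest to Hmox1 over the 10 libraries (0.903), then Gclm (0.630), Slc7a11 (0.615), Gsr (0.438), Txnrd1 (0.133) and Nqo1 (0.0600), while Srxn1 and Osgin1 were below 10 CPM. Centred within OLs and within OPCs, the members had another order, with Slc7a11 at 0.909, Gclc at 0.904, Gsr at 0.850, Gclm at 0.809, Nqo1 at 0.553 and Txnrd1 at 0.0557.

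The sequences of the miRNAs are shown because the groups differ in them, taken from RefSeq (GRCr8) with the seed, bases 2 to 8, in capitals. The seeds of the miRNAs differ. The mature sequence of the first lies at chr18:57370033-57370055 and that of the second at chr3:33516561-33516581, both on the minus strand. The labels name the second mimic only as miR-219, and rno-miR-219a-5p is shown on the assumption that it is meant.
rno-miR-145-5p: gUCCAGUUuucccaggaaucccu
rno-miR-219a-5p: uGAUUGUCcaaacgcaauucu

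NRF2 with a small MAF protein binds the antioxidant response element, whose core was searched as TGACNNNGC on both strands of RefSeq promoter windows of 300 bases (GRCr8). Windows were found for 7 of the 9 members, not for Hmox1 and Gsr. The core was in a window of 2 members, Gclm and Txnrd1, and in 22 of the 85 listed genes with a window (25.9%), where 13.1% of 27457 genes and 12.1% of 33469 windows hold it. A match is a description, and a window without it says only that these letters are not in it. The matches are printed with 10 bases on each side and the core in capitals, on the strand that reads TGACNNNGC, which is the minus strand of chr2:213031953-213031981 for Gclm and the plus strand of chr7:22755964-22755992 for Txnrd1.
Gclm: tggaagacaaTGACTAAGCagaaaccgca
Txnrd1: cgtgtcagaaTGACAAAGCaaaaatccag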

How the data were processed

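The authors assigned reads to rat transcripts with Salmon 0.12.0 and deposited a table of estimated counts, without normalization, that holds 23487 genes and 10 libraries, of which 4030 had 0 in every library. Their second table compares OL miR-145 with OL miR-ctl by DESeq2 (mean normalized value, log2 fold change, its standard error, statistic, p and adjusted p); those values were not used, and the deposited symbols and Entrez IDs named genes (14561 of 16129 rows by symbol, 240 more by Entrez ID through RefSeq, GRCr8). Estimated counts were rounded and tested with edgeR 4.0.16 in R 4.3.3 (TMM, quasi-likelihood, two-sided), each comparison on its own 4 libraries, where 2 or more of these held 5 counts or more of a gene. A gene was called when its p, adjusted by Benjamini and Hochberg over all genes tested, was under 0.05. The standard error is the log2 fold change over the square root of F. Python 3.11.15 with pandas 2.3.3 made the summaries. Functions were tested on simulated data with 200 changed genes. For OL miR-145 against OL miR-ctl edgeR recovered 175 of them and made 22 false calls. DESeq2 recovered 183 and made 48 false calls, more than edgeR. Alternatives were DESeq2 1.42.0, its size factors in edgeR, other count filters, all groups fitted together, a replicate block, a fold of at least 1.5 and leaving out each library. Members and lists were chosen with earlier results of these data known. Genes named are the members, the regulators, Hmox2, from each other list up to 2 called genes of largest log2 fold change in each direction per comparison, the most abundant marker of each cell type and genes among the 5 most like Hmox1; not every gene that meets this rule is given. Levels of the miRNAs and their target sites in transcripts were not analysed here.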

Additional observations from a re-analysis of the deposited data

How the results depend on the processing

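With 2 libraries a group precision is limited, and Srxn1 and Osgin1 are limited by depth as well. With 1 library left out, the lone library of its group is assumed to vary like the other group. The cause of the changes below was not tested. Counts of members for the miR-145 mimic alone and for the inhibitor are given only to show how they move with the processing, since those comparisons were used in choosing Hmox1, which they include. For OL miR-145 against OL miR-ctl edgeR called 0 genes, and also 0 without any 1 library, but DESeq2 called 649 genes, 1 member and 14 listed genes, and a fit of all 5 groups called 79 genes, 0 members and 1 listed gene. For both mimics against miR-ctl DESeq2 called 106 genes and 1 listed gene, and edgeR without a filter called 1 gene. For both mimics against miR-145 DESeq2 called 9 genes. Replicate numbers are shared by the groups, but the labels do not tie a number to 1 culture. Summed OL markers were higher in replicate 2 of each OL group. They were at 16890 and 31042 CPM with miR-ctl, 15559 and 24891 CPM with miR-145, and 19419 and 34110 CPM with both mimics. In each OL group replicate 2 also had the higher microglia sum and the lower astrocyte sum. Deviations of same-numbered libraries correlated at 0.237, 0.236, 0.422, -0.0738 and 0.0295 in the 5 comparisons. With the replicate block edgeR called 2272 genes, 3 members and 31 listed genes for the miR-145 mimic, 132 genes for both mimics, and 184 genes, 1 member and 6 listed genes for both against miR-145. In OPCs the block gave 3963 genes in place of 4348, and between the stages 8534 in place of 9042.

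In OPCs the fit of all 5 groups called 2657 genes and 23 listed genes, and a fold of at least 1.5 left 2597 genes, 2 members and 20 listed genes. Leaving out 1 library gave 2348 to 7133 genes, 4 to 5 members and 18 to 54 listed genes. Between the stages a fold of at least 1.5 left 41 listed genes, and leaving out 1 library gave 4780 to 10306 genes and 30 to 77 listed genes.

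Small differences, among them values of members given without a test, changed sign when 1 library was left out. Ranges were -0.0030 to 0.095 for Gsr, -0.029 to 0.18 for Txnrd1, -0.056 to 0.18 for Keap1 and -0.095 to 0.033 for Hmox2 with the miR-145 mimic. With both mimics against miR-ctl they were -0.34 to 0.29 for Nqo1, -0.062 to 0.18 for Gclc, -0.25 to 0.17 for Gclm, -0.19 to 0.13 for Txnrd1, -0.027 to 0.83 for Slc7a11, -0.14 to 0.013 for Gsr, -0.028 to 0.21 for Keap1 and -0.067 to 0.17 for Hmox2, and Nqo1 was at -0.0084 with the block. Against miR-145 they were -0.21 to 0.031 for Gclc, -0.40 to 0.026 for Gclm, -0.28 to 0.050 for Srxn1, -0.27 to 0.051 for Txnrd1, -0.83 to 0.038 for Slc7a11, -0.048 to 0.081 for Keap1 and -0.038 to 0.19 for Hmox2. In OPCs they were -0.28 to 0.20 for Nqo1, -0.051 to 0.41 for Osgin1, -0.24 to 0.059 for Mafk, -0.022 to 0.020 for Nfe2l1 and -0.23 to 0.21 for Gsk3b, with Nfe2l1 at -0.0028 without a filter and -0.012 with at least 10 counts, and Gsk3b at -0.0091, -0.018 and, with the block, -0.012. Between the stages Rbx1 ran from -0.15 to 0.066. Between the stages all 9 members kept their sign under each of 10 alternatives. By Spearman's rank correlation 2 of the 5 genes most like Hmox1 were shared with Pearson's.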
